A study of Bos taurus with 8 samples.

Results

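The genes described here are *ID1*, *ID2*, *ID3*, *ID4*, *TCF3*, *TCF4*, *TCF12*, *TWIST1*, *TWIST2* and *MSC*, which encode dimer partners and repressors of the myogenic transcription factors. They were chosen by name, for the roles of their proteins, and all 10 were found among the 18871 genes of the count table. Each was matched by symbol to 1 protein-coding gene of the bovine assembly ARS-UCD2.0, and the 10 genes lie on 10 different chromosomes.

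Myogenic factors such as MYOD1 belong to the basic helix-loop-helix proteins, which bind DNA as dimers, usually with an E-protein (encoded by *TCF3*, *TCF4* and *TCF12*). ID proteins carry the helix-loop-helix but lack the basic region that contacts DNA, so a dimer of an ID protein with an E-protein does not bind, and muscle differentiation is held back. TWIST proteins and musculin, the product of *MSC*, are basic helix-loop-helix proteins known as repressors of myogenic factors, and they too can pair with E-proteins.

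RNA-seq was carried out on 8 single-cell preadipocyte clones of Angus-cross steers, 4 from intramuscular fat (IMF1 to IMF4) and 4 from subcutaneous fat (SF1 to SF4), to compare the preadipocytes of these depots. All the animals were adult males, and the labels give no genotype and no treatment that differs between the groups. Every clone descended from 1 cell of the stromal vascular fraction and came from its own tissue sample. Clones that resembled fibroblasts, turned readily into adipocytes and divided quickly were the ones used, so they do not sample all cells of a depot. The study's methods place RNA extraction in growth medium before confluence, whereas the deposited design text places adipogenic induction before sequencing. The labels name 5 steers and the paper 6, fewer than the 8 clones, so some clones shared an animal. As the paper describes 6 samples of each depot from 6 steers, clones of 1 group would come from different animals. The sharing would then lie between the groups. The sources used here do not say which clones shared an animal, and the tests take the clones as independent. Reads assigned to genes numbered 19654917, 29308882, 20154941 and 20693899 in IMF1 to IMF4, and 20482958, 19979899, 24868233 and 21034462 in SF1 to SF4. Levels are given as CPM, the counts of a gene scaled to a common library size with TMM factors, for which 3 counts correspond to 0.0981 CPM in the deepest library and 0.165 CPM in SF4. The lowest count of any of the 10 genes in any clone was 42.

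Of the 10 genes, 5 differed between the groups at an adjusted p-value under 0.05 (quasi-likelihood test of edgeR, Benjamini-Hochberg adjusted over 18339 genes). *TCF3* and *TCF4* were higher in the IMF clones, and *ID2*, *ID3* and *TWIST1* were lower. Among all genes tested, 14.4% were higher and 11.4% were lower by the same rule, which is the background for the 2 and 3 of 10. None of the 10 also reached an absolute log2 fold change of 1, a rule passed by 4.78% of all genes upward and 4.04% downward. That count of 0 came from edgeR. At an unadjusted p under 0.05 the count was 8 of 10, against 6959 of the 18339 genes tested, while DESeq2 passed 1 gene, *TWIST2*, through both thresholds and limma-voom passed 0. With 1 clone left out in turn, edgeR passed 2 without SF1 (*TWIST1* and *TWIST2*), 1 without SF3 (*ID1*) and 1 without SF4 (*TWIST1*). The 5 genes past the adjusted p-value were also those whose groups did not overlap, with every IMF clone above every SF clone for 2 (18.0% of all genes) and below for 3 (14.1% of all genes). The median log2 fold change was -0.15 over the 10 genes and -0.03 over all genes.

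**Figure D1:**
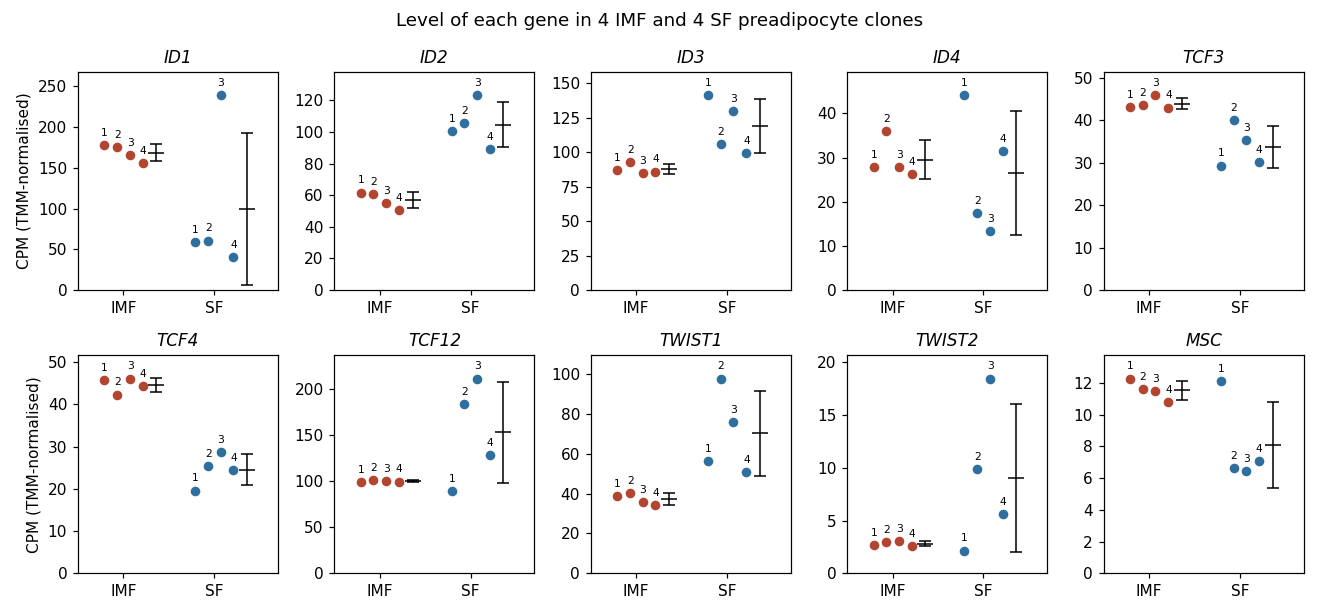
Level of each of the 10 genes in CPM (vertical axis, linear, from 0) in the 4 IMF and 4 SF preadipocyte clones. Numbered points are clones, and the bar to their right is the mean with 1 SD. For *ID1*, SF3 at 239 CPM lies above the IMF clones while the other SF clones lie below them, and for *TCF4* all IMF clones lie above all SF clones.

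*ID1* (chromosome 13, bases 61180673 to 61181832) encodes an inhibitor whose transcription is a textbook target of BMP signalling. Its level was 178, 176, 165 and 156 CPM in IMF1 to IMF4 and 59.2, 60.8, 239 and 41.1 CPM in SF1 to SF4. The IMF clones lay close together, 3 SF clones lay well below them, and SF3 lay above all the others, so the groups overlapped. The IMF mean was 169 ± 10.2 CPM and the SF mean 100.03 ± 93.1 CPM (± SD over 4 clones, here and for the other means). The log2 fold change of IMF over SF was 0.75 with a 95% interval from -0.42 to 1.93, and it did not pass the test (edgeR adjusted p = 0.329). This result rested on 1 clone: without SF3 the log2 fold change was 1.62, with an adjusted p of 0.000504 by the same test. Each library pools the RNA of many cells, so for this and every other gene fewer cells of a type and less RNA per cell cannot be told apart.

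*ID2* (chromosome 11, bases 88604892 to 88607196) was the clearest difference among the inhibitors. The IMF clones held 61.6, 60.6, 54.8 and 50.7 CPM, and the SF clones 100.4, 106, 123 and 89.3 CPM. Every IMF clone was below every SF clone. The IMF mean was 56.9 ± 5.10 CPM and the SF mean 105 ± 14.1 CPM. The log2 fold change was -0.88 (SE 0.11, edgeR adjusted p = 0.000907), with 4 of 4 IMF clones below the SF clones, and the adjusted p stayed under 0.05 in all 18 alternative settings.

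*ID3* (chromosome 2, bases 129292811 to 129298372) differed in the same direction by a smaller amount. In the IMF clones its level was 86.7, 92.9, 84.9 and 85.9 CPM, and in the SF clones it was 141, 106, 130 and 99.5 CPM. The groups did not overlap, although IMF2 and SF4 were close. A log2 fold change of -0.44 (SE 0.12) passed the adjusted p-value (edgeR adjusted p = 0.0257). It no longer did so without IMF1 (0.063), IMF3 (0.0625) or IMF4 (0.0644), or with total counts alone as the scaling (0.162).

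*ID4* (chromosome 23, bases 38098536 to 38101941) was the least abundant inhibitor by TPM in every clone. It stood at 27.9, 35.98, 27.8 and 26.3 CPM in the IMF clones, against 44.1, 17.4, 13.3 and 31.5 CPM in the SF clones. The IMF values fell inside the range of the SF clones, of which SF1 was the highest and SF3 the lowest. With a log2 fold change of 0.15 and a 95% interval from -0.63 to 0.94, no difference was called (edgeR adjusted p = 0.788). The sign turned without SF2 (-0.0043) and without SF3 (-0.11).

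*TCF4* (chromosome 24, bases 54590672 to 54976832) encodes an E-protein and is not the Wnt effector *TCF7L2*, which is sometimes called by the same name. The IMF clones stood at 45.7, 42.3, 46.1 and 44.3 CPM and the SF clones at 19.6, 25.4, 28.7 and 24.5 CPM. All IMF clones were above all SF clones, with a wide gap between the groups. Means of 44.6 ± 1.72 and 24.6 ± 3.74 CPM gave a log2 fold change of 0.86 (SE 0.11, edgeR adjusted p = 0.00093), higher in 4 of 4 IMF clones. The adjusted p stayed under 0.05 in all 18 alternative settings. Its span overlaps 2 other annotated genes, neither of which was among the genes analysed here, and reads of overlapping genes may have been shared.

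*TCF3* (chromosome 7, bases 43981896 to 44014977), another E-protein gene, had 43.1, 43.6, 45.8 and 42.9 CPM in the IMF clones, against 29.3, 40.04, 35.3 and 30.1 CPM in the SF clones. The groups did not overlap, but SF2 came near the IMF clones. The log2 fold change was 0.38 (SE 0.10, edgeR adjusted p = 0.0295). Leaving out 1 clone ended the call in 6 of 8 cases, with adjusted p-values of 0.0604, 0.0706, 0.0958 and 0.0595 without IMF1 to IMF4, 0.0534 without SF3 and 0.0718 without SF4.

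*TCF12* (chromosome 10, bases 53023354 to 53416685) was the most abundant E-protein gene by TPM in both groups. It was nearly constant among the IMF clones, at 99.1, 101, 99.7 and 99.3 CPM, and ran over 88.7, 183, 211 and 128 CPM in the SF clones. SF1 was below all the IMF clones and the other SF clones were above them. The log2 fold change of -0.61 had a 95% interval from -1.16 to -0.07 and an edgeR adjusted p of 0.0955. Without SF1 it was -0.80 with an adjusted p of 0.00734, and DESeq2 gave an adjusted p of 0.0464. Another annotated gene, not analysed here, overlaps its span.

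*TWIST1* (chromosome 4, bases 27817880 to 27819874), a repressor expressed in mesenchymal cells, stood at 38.7, 40.4, 35.6 and 34.3 CPM in the IMF clones, against 56.2, 97.7, 75.9 and 50.7 CPM in the SF clones. Every IMF clone was below every SF clone, and SF2 was the highest. Its log2 fold change was -0.91 (SE 0.20, edgeR adjusted p = 0.0106), with an adjusted p under 0.05 in all 18 alternative settings. Without SF1 (-1.01) or without SF4 (-1.04) it also passed the fold threshold, and over the clones left out in turn the log2 fold change ran from -1.04 to -0.71.

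*TWIST2* (chromosome 3, bases 118051375 to 118103634) had the lowest TPM of the 10 genes in the IMF clones, and in CPM stood there at 2.69, 2.98, 3.04 and 2.57 CPM. In the SF clones it had 2.16, 9.86, 18.4 and 5.62 CPM. SF1 was below the IMF clones and the other SF clones were above them, so the groups overlapped. Its log2 fold change of -1.68 was the largest in size among the 10 genes over all clones, but without SF3 it was -1.09 and that of *ID1* was larger, at 1.62. Its 95% interval ran from -2.94 to -0.43 and it did not pass the test (edgeR adjusted p = 0.0549). The adjusted p was 0.00595 without SF1, 0.0112 by DESeq2 and 0.0493 with the stricter filter (10 counts or more in 4 or more clones), and over all alternatives it reached 0.187.

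*MSC* (chromosome 14, bases 35439965 to 35441975) had 12.3, 11.6, 11.5 and 10.8 CPM in the IMF clones, against 12.1, 6.66, 6.45 and 7.05 CPM in the SF clones. SF1 lay among the IMF clones, and the other SF clones lay below them. The log2 fold change was 0.52, with a 95% interval from 0.05 to 0.99 (edgeR adjusted p = 0.102). Without SF1 it was 0.78 with an adjusted p of 0.000775, and the adjusted p was 0.0434 by limma-voom and 0.0474 with total counts alone. For *TCF12*, *TWIST2* and *MSC* the overlap of the groups came from SF1 alone, and for *ID1* from SF3 alone.

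**Figure D2:**
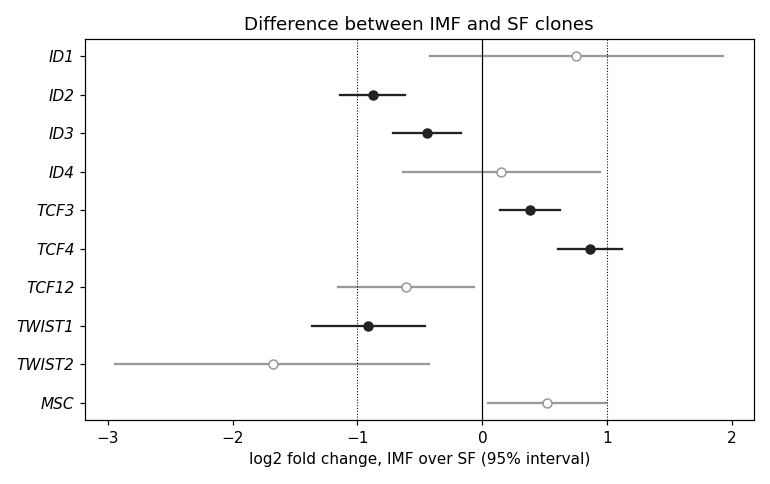
Log2 fold change of IMF over SF for each gene (points) with its 95% interval (lines). Filled points have an adjusted p-value under 0.05 (quasi-likelihood test of edgeR, Benjamini-Hochberg adjusted), open points do not, and dotted lines mark a log2 fold change of -1 and 1. The widest intervals are those of *ID1*, from -0.42 to 1.93, and *TWIST2*, from -2.94 to -0.43.

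The SF clones differed among themselves more than the IMF clones did. The median coefficient of variation over the 10 genes was 5.64% among IMF clones and 32.0% among SF clones, and the SF value was the larger for 10 of 10 genes. Over the 14351 genes with a mean of at least 1 CPM in both groups, the medians were 8.01% and 16.1%, and the SF value was larger in 71.1%. From the lowest to the highest SF clone, *TWIST2* ranged 8.55-fold and *ID1* 5.82-fold, whereas *TCF3* ranged 1.37-fold. SF3 held the highest SF level of 5 of the 10 genes (23.9% of the 14351 genes), and IMF4 the lowest IMF level of 7 of 10 (37.1%).

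The scaling of the libraries moved all differences together. With total counts alone, the median over all genes of the log2 fold change went from -0.03 to 0.12, and the share of called genes that were higher in IMF went from 54.2% to 66.7%. All 10 genes kept their direction under the RLE, upper quartile and total-count scalings. Relative to the median of all genes, the log2 difference of *ID3* was -0.41 with TMM and -0.42 with total counts alone, and that of *TCF4* was 0.89 with either.

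Levels of different genes were compared as TPM, which also divides by the deposited gene length. In the IMF clones the order of mean TPM was *ID1* (287), *ID3* (157), *ID2* (46.2), *TWIST1* (42.3), *TCF12* (30.2), *ID4* (19.9), *MSC* (17.2), *TCF3* (12.4), *TCF4* (7.42) and *TWIST2* (3.38). Only the neighbours *ID2* and *TWIST1*, and *ID4* and *MSC*, overlapped in their ranges over the clones. This order depends on the lengths used. For *TCF3* and *TCF4*, of 5891 and 10052 bases, the IMF means in CPM were 43.9 and 44.6. In the SF clones the order was *ID3* (212), *ID1* (173), *ID2* (84.3), *TWIST1* (80.2), *TCF12* (46.3), *ID4* (17.4), *MSC* (11.8), *TWIST2* (10.99), *TCF3* (9.51) and *TCF4* (4.04). There all neighbours overlapped except *TCF3* and *TCF4*. The SF means of *ID1* and *TWIST2* rested on SF3. Without that clone they were 53.7 CPM in place of 100.03 and 5.88 CPM in place of 9.02, so the place of *TWIST2* in the SF order also rested on it. Among all genes tested, the mean CPM of *ID1* ranked at percentile 95.9 for the IMF clones and 92.2 for the SF clones, and that of *TWIST2* at 30.1 and 47.9.

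The summed level of the ID genes overlapped between the groups, whereas the shares of *ID1* and *ID2* in it did not. The shares of *ID3* (30.9% ± 1.11 in IMF and 46.6% ± 10.6 in SF) and *ID4* (3.91% ± 0.419 and 4.22% ± 2.55) overlapped. The sum was 511 ± 45.8 TPM in IMF and 486 ± 203 TPM in SF, where SF1 to SF4 had 452, 422, 774 and 298 TPM, so the SF clones enclosed the IMF range of 449 to 555 TPM. *ID1* made up 56.2% ± 0.966 of the ID level in the IMF clones, and in the SF clones it made up 54.3% in SF3 and between 20.4% and 26.4% in the others. *ID2* made up 9.02% ± 0.364 in IMF and 18.4% ± 3.92 in SF, without overlap. The ratio of *ID1* to *ID3* was 1.82 ± 0.0945 in IMF and 0.397, 0.543, 1.74 and 0.391 in SF1 to SF4.

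The E-protein genes together had 50.01 ± 3.96 TPM in IMF and 37.2, 76.3, 81.1 and 44.8 TPM in SF1 to SF4, and the groups overlapped. Their make-up did not overlap: *TCF12* took 60.3% ± 0.786 of the E-protein level in IMF and 76.1% ± 4.78 in SF, and *TCF4* took 14.8% ± 0.525 and 7.11% ± 1.29. The ratio of *TCF4* to *TCF12* was 0.246 ± 0.0113 in IMF and 0.0944 ± 0.0228 in SF. These shares and ratios are descriptions and were not tested. The ID level per E-protein level was 10.2 ± 0.571 in IMF (9.67 to 10.8) and 12.1, 5.53, 9.55 and 6.67 in SF1 to SF4, which enclosed the IMF values.

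**Figure D3:**
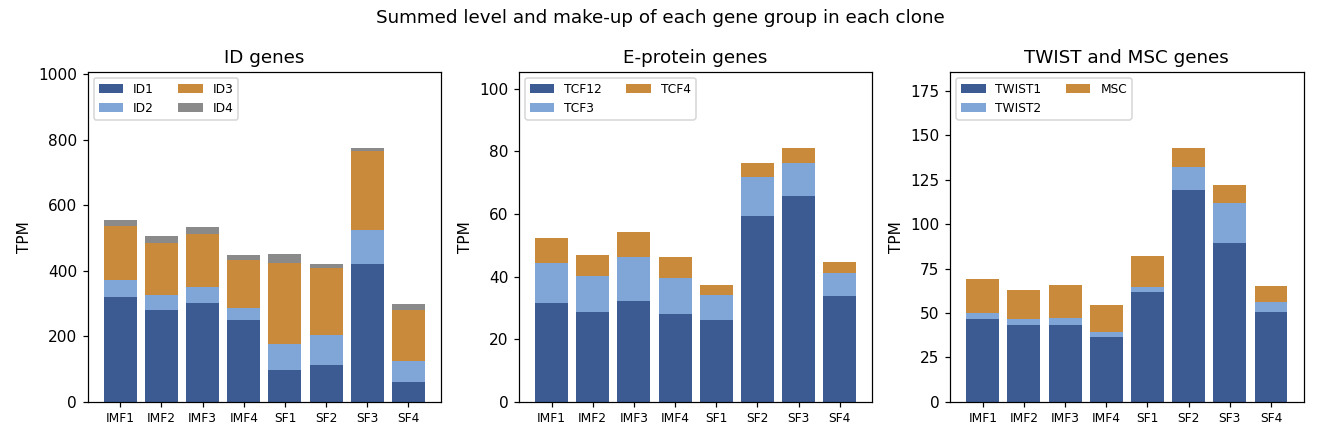
Stacked bars of the TPM of the ID genes (left), the E-protein genes (middle) and the TWIST and *MSC* genes (right) in each clone, with each axis starting at 0. In the left panel *ID1* fills 56.2% of the IMF bars on average, and in the middle panel *TCF12* fills 60.3% of the IMF bars and 76.1% of the SF bars on average.

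Within the repressors, *TWIST1* made up 67.3% ± 1.10 of the summed level in IMF and 77.4% ± 4.48 in SF. The ratio of *TWIST2* to *MSC* was 0.198 ± 0.0166 in the IMF clones and 0.144, 1.20, 2.31 and 0.644 in SF1 to SF4. SF1 was below the IMF clones in this ratio and the other SF clones were above them.

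The myogenic partners that these proteins bind or oppose were found almost only in the IMF clones. *MYOD1*, which starts the muscle programme, had 174, 150, 172 and 152 CPM in IMF1 to IMF4 and 0 counts in each SF clone, at least 1098-fold higher in IMF against a floor of 3 counts per SF library. *MYOG*, needed for terminal differentiation, had 44.5, 45.3, 38.8 and 34.2 CPM in the IMF clones and 0 counts in each SF clone, at least 275-fold higher. *MYF5* had 19.4, 19.9, 21.9 and 19.2 CPM in the IMF clones against counts of 0, 2, 0 and 5 in the SF clones. All 3 genes were called higher (against 4.78% of all genes), and they passed both thresholds in all 18 alternative settings. In the IMF clones their summed level was 209 ± 28.3 TPM, or 4.17 ± 0.267 per TPM of E-protein, and the ID level was 2.46 ± 0.161 times that sum.

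Known targets of these dimers were mostly higher in the IMF clones as well. Of 17 genes tested, 12 were called higher (against 4.78% of all genes), among them *ITGA7*, an integrin of muscle cells, at 268 ± 8.72 against 2.82 ± 4.07 CPM, and *MYH3*, an embryonic myosin heavy chain, at 123 ± 11.2 against 0.166 ± 0.0915 CPM. Most of the *ITGA7* in the SF mean came from SF4, without which it was 0.852 CPM. *RB1*, the retinoblastoma gene, was the 1 target called lower (against 4.04% of all genes). Its log2 fold change was -1.32 (edgeR adjusted p = 0.00399), with 4 of 4 IMF clones below the SF clones. *DES*, which encodes desmin, stood at 97.6 ± 8.24 against 12.1 ± 10.2 CPM, a call lost when SF3 or any 1 of the IMF clones was left out (edgeR adjusted p up to 0.077).

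The BMP pathway, which drives ID transcription, was described over 21 of 25 listed genes, of which 3 were called higher in IMF (against 4.78% of all genes) and 2 lower (against 4.04%). At the adjusted p-value alone 5 were higher and 5 lower (from 2 to 5 and from 4 to 7 with 1 clone left out), against 14.4% and 11.4% of all genes, and the median log2 fold change was -0.21, against -0.03 over all genes. Of the genes called by that rule only, *BAMBI* lost the call without a filter (edgeR adjusted p = 0.0534) and with each clone except SF1 left out (0.0549 or more). Without SF1 (log2 fold change 1.06, edgeR adjusted p = 0.0235) and with total counts alone (1.02, 0.0303) *BAMBI* passed both thresholds. *SMAD7* lost the call at the adjusted p-value without IMF1, IMF3, IMF4, SF1 or SF3 (up to 0.0798) and *SMAD1* without IMF1, IMF3 or SF4 (up to 0.0679). With total counts alone *SMAD7* (0.0873) and *ACVR1* (0.0563) lost it. Of the ligands, *BMP4* rose from 2.05 ± 0.202 CPM in SF to 19.9 ± 1.90 CPM in IMF (log2 fold change 3.28, edgeR adjusted p = 2.89e-06, 4 of 4 clones). *BMP6* stood at 12.7 ± 0.577 against 2.06 ± 2.54 CPM, a call lost without IMF2, IMF3, SF3 or SF4 (edgeR adjusted p up to 0.0581). Its SF level rested on SF1, at 5.85 CPM: without that clone the SF mean was 0.798 CPM and the log2 fold change went from 2.63 to 4.00. *ACVRL1*, a type I receptor, was higher, with 14.2 ± 0.818 against 2.23 ± 1.14 CPM and a log2 fold change of 2.68 (edgeR adjusted p = 0.000477).

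The 2 genes called lower encode secreted BMP antagonists. *NOG*, encoding noggin, had 8.11, 8.01, 6.30 and 6.90 CPM in IMF1 to IMF4 and 21.1, 25.6, 46.9 and 45.95 CPM in SF1 to SF4. *CHRD*, encoding chordin, had 7.87, 6.18, 6.98 and 7.95 CPM in the IMF clones, against 19.7, 15.2, 42.9 and 17.8 CPM in the SF clones. For each of these genes the groups did not overlap. Their log2 fold changes were -2.25 (edgeR adjusted p = 0.000727) and -1.73 (edgeR adjusted p = 0.00567). *GREM1*, another antagonist gene, was not called over all clones but was lower by DESeq2 (adjusted p = 0.00767) and in edgeR without SF2 (0.0401) or SF4 (0.0108). *FST*, a further antagonist gene, overlapped between the groups at 182 ± 8.93 against 221 ± 102 CPM. It was not called (log2 fold change -0.28, edgeR adjusted p = 0.531). Any part of these genes in the ID levels was not tested.

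A further list held 13 genes from families that include repressors of basic helix-loop-helix factors. Of these, 4 were called higher and 1 lower (against 4.78% and 4.04% of all genes), with a median log2 fold change of 0.42. Whether each listed gene, such as *HES6*, acts as a repressor in these cells was not tested. Without SF3, *MDFI* was also called higher (edgeR adjusted p = 0.047). The 4 called higher over all clones belong to the HES and HEY families, which are known as Notch targets or their relatives. *HES6* had 32.2 ± 2.61 CPM in the IMF clones against 0.160 ± 0.118 CPM in the SF clones, and *HEYL* 17.1 ± 0.486 against 1.23 ± 1.83 CPM. *HEY1* stood at 11.5 ± 0.843 and 4.46 ± 1.41 CPM, and *HEY2* at 3.57 ± 0.483 and 0.262 ± 0.217 CPM. The SF mean of *HEYL* was 0.319 CPM without SF1, that of *HEY2* 0.166 CPM without SF2 and that of *HES6* 0.105 CPM without SF3. *HES1* was lower, at 18.8 ± 0.963 against 40.9 ± 6.72 CPM, with a log2 fold change of -1.12 (edgeR adjusted p = 0.000321) that was -0.98 with total counts alone, short of the fold threshold.

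Of 13 listed relatives of TWIST and musculin, 4 were in the table and 2 were called lower (against 4.04% of all genes). *SCX*, encoding the tendon factor scleraxis, stood at 1.48 ± 0.104 CPM in the IMF clones, against 5.11 ± 1.53 CPM in the SF clones. *MESP1* stood at 1.28 ± 0.358 and 2.68 ± 0.220 CPM, a call lost on fold size without IMF2 (log2 fold change -0.98) or IMF4 (-0.97) and with total counts alone (-0.91). Among 12 of 19 listed other partners of E-proteins, 3 were called higher (against 4.78% of all genes) and 1 lower (against 4.04%). *TAL1*, a factor of blood and endothelial cells, had 4.04 ± 0.496 CPM in the IMF clones and counts of 3, 0, 10 and 11 in the SF clones, and its cofactor gene *LMO2* had 11.02 ± 1.28 CPM in IMF and counts of 0, 0, 1 and 0 in SF1 to SF4. *GATA2* was lower, at 12.6 ± 1.36 against 48.5 ± 41.7 CPM, a call lost when any 1 of the IMF clones was left out (edgeR adjusted p up to 0.0626) and with limma-voom (adjusted p = 0.0563). Its SF level rested on SF1, at 110.1 CPM, without which the SF mean was 27.99 CPM and the log2 fold change went from -1.94 to -1.15. *CBFA2T3* was higher, a call kept only without SF1 among the clones left out (log2 fold change 2.55 in place of 1.82, edgeR adjusted p up to 0.0816 in the others). None of 8 genes of ID protein stability passed both thresholds by edgeR, DESeq2 or limma-voom over all clones. By edgeR 4.78% of all genes passed them upward and 4.04% downward. An unadjusted p under 0.05 was found for 6 of the 8, against 6959 of the 18339 genes tested. Without SF3 *CDC20* passed both thresholds in edgeR (log2 fold change 1.00). At the adjusted p-value alone *CDC20* was higher (against 14.4% of all genes), in all 18 alternative settings as well. *FZR1* and *SMURF1* were lower by that rule (against 11.4% of all genes). With total counts alone neither call held (edgeR adjusted p = 0.259 and 0.12), and that of *FZR1* was also lost without IMF1 (0.0524).

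The preadipocyte label was checked against 8 markers, all of them in the table. Of these, 2 were called higher (against 4.78% of all genes) and 1 lower (against 4.04%). *PDGFRB* had the highest TPM in all 8 clones and stood at 210.1 ± 11.1 CPM in the IMF clones, against 236 ± 63.1 CPM in the SF clones, and *PDGFRA* had 184 ± 2.84 and 131 ± 23.2 CPM. *CD34* had 10.5 ± 0.522 CPM in IMF and was at 3 counts or fewer in each SF clone, and *FABP4* had 9.64 ± 1.86 CPM in IMF and counts of 0, 0, 8 and 7 in SF1 to SF4. *PPARG* was low in both groups, at 1.23 ± 0.244 and 3.13 ± 0.538 CPM, and was called lower in IMF (log2 fold change -1.35, edgeR adjusted p = 0.00365). *DLK1* was sparse, with counts of 66, 0, 4 and 38 in the IMF clones, against 22, 6, 16 and 12 in the SF clones. *DLK1*, *ZNF423* and *CEBPA* overlapped between the groups and were not called.

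Markers of muscle cells and most endothelial markers were called higher in IMF, whereas mural and leukocyte markers were mixed. All 10 muscle cell markers were called higher in IMF (against 4.78% of all genes). This list shares *MYOD1*, *MYF5* and *MYOG* with the myogenic partners, and *DES*, *ITGA7*, *CDH15*, *MYH3* and *CKM* with the targets above. Only *ACTA1* and *TTN* were not in those lists, so the counts are not separate results. The sums of the 10 markers were 1025, 1007, 1025 and 923 CPM in IMF1 to IMF4 and 22.3, 2.20, 10.1 and 33.4 CPM in SF1 to SF4. By TPM the most abundant was *MYOD1* in the IMF clones (145 ± 21.6) and *DES* in the SF clones (8.46 ± 6.86), and *MYOD1*, *MYOG* and *CKM* were at 0 in the SF clones. Of 12 endothelial markers 10 were called higher (against 4.78% of all genes). These 10 summed to 143, 149, 148 and 165 CPM in the IMF clones, against 2.77, 4.405, 3.98 and 3.09 CPM in the SF clones. Over all 12 the sums were 183, 198, 196 and 232 CPM in IMF1 to IMF4 and 79.9, 50.2, 43.4 and 63.3 CPM in SF1 to SF4. *FLT1* was not called and had the opposite direction, at 14.3 ± 1.09 against 24.4 ± 12.5 CPM (edgeR adjusted p = 0.108). *CLDN5* had the highest TPM in all 8 clones, with means of 48.2 ± 13.0 TPM in IMF and 40.6 ± 5.92 TPM in SF, and was not called. *CDH5* had 53.9 ± 2.88 against 0.174 ± 0.0463 CPM, and *KDR* and *EMCN* were at 0 in the SF clones.

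Of 6 mural markers in the table, 2 were called higher (against 4.78% of all genes) and 4 lower (against 4.04%). Their sums were 2446, 2472, 2317 and 2205 CPM in IMF1 to IMF4 and 11040, 4010, 3240 and 7196 CPM in SF1 to SF4. *TAGLN* had the highest mean TPM in both groups, at 1365 ± 138 TPM in IMF and 2824 ± 1027 TPM in SF, although *ACTA2* was above it in 2 of the 4 SF clones. The *TAGLN* call was lost on fold size without SF1 (log2 fold change -0.81) and with total counts alone (-0.93). The *ACTA2* call was lost when any 1 of the IMF clones, SF1 or SF4 was left out (edgeR adjusted p up to 0.0814) and with limma-voom (adjusted p = 0.0505). Of the 2 called higher, *MYH11* lost the call with each clone except SF1 left out (edgeR adjusted p up to 0.0766), and without SF1 its log2 fold change was 2.30 in place of 1.59. *MCAM* lost it without IMF3 (0.052), when 0 mural markers were called higher. It had 5.34 CPM in SF1, 3 counts each in SF2 and SF3 and 0 in SF4, and no other mural marker was at 0 in any clone. Of 7 leukocyte markers found, 1 was called higher, *CD14* (against 4.78% of all genes), and 1 lower, *CD3E* (against 4.04%). The *CD3E* call was lost without IMF1, IMF2, IMF3, SF1, SF2 or SF4 (edgeR adjusted p up to 0.103). *PTPRC* was below in all IMF clones, at 9.68 ± 7.28 against 33.3 ± 11.3 CPM (log2 fold change -1.79), and was not called (edgeR adjusted p = 0.0518). It was called lower by DESeq2 (0.00905) and by limma-voom (0.0184). In edgeR it was called lower without IMF1 (0.0217) or IMF2 (0.037) and with clone number as a block (0.0263). *AIF1* was called higher without SF3 (0.0316). The leukocyte sums were 45.3, 26.9, 26.5 and 45.9 CPM in the IMF clones, against 91.98, 60.7, 54.0 and 89.9 CPM in the SF clones, with *ITGAM* at 0 in IMF2 and IMF3. *TYROBP* had the highest TPM in all 8 clones, with means of 24.1 ± 7.37 TPM in IMF and 38.0 ± 16.7 TPM in SF. Any part of these cell type markers in the levels of the ID, E-protein, TWIST and *MSC* genes was not tested.

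The genes most alike in pattern were sought by Pearson's r of log2 CPM over the 8 clones, among 15380 genes, as a description that pools both groups. *ID2* was followed most closely by *PLOD3* (0.992), *ATP13A2* (0.989) and *MAP2K2* (0.989). *TCF4* was followed by *ITGB8* (0.997), *LOC107131948* (0.996) and *NUP160* (0.996), and *TWIST1* by *LOC535280* (0.991), *TMEM220* (0.987) and *ZDHHC1* (0.985). For these 3 genes the groups do not overlap, so r also holds the difference between them. *ID1* and *TWIST2* were added after their values were seen. *ID1*, with its high value in SF3, was followed by *TM4SF1* (0.994), *SYNGR2* (0.986) and *GTSE1* (0.982). The gene most like *TWIST2* was *TCF12* (0.992), then *BICC1* (0.990) and *OXR1* (0.988), and *TWIST2* and *TCF12* shared the order SF3, SF2, SF4 and SF1 from high to low.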

How the data were processed

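Poly(A) RNA of 8 clones was sequenced. The authors trimmed reads (Trimmomatic 0.39), aligned them to ARS-UCD2.0 (HISAT2 in the paper, STAR 2.7.11a in the submitters' processing notes) and counted them with featureCounts 2.0.2. Their raw counts per gene and clone were deposited without normalization, with gene lengths. The paper describes a non-stranded kit and the labels a dUTP protocol, so overlapping genes may share reads. The authors' columns of group means and of their own DESeq2 comparison (fold changes, p-values, calls) were not used. Counts of a row without a gene name (0.0148% to 0.0209% of each library) were left out. No other column was left unmatched.

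IMF and SF clones were compared with edgeR 4.0.16 in R 4.3.3 (TMM, two-sided quasi-likelihood test, Benjamini-Hochberg adjustment over 18339 genes with at least 20 counts in total; 532 genes had fewer). A gene was called when its adjusted p was under 0.05 and its log2 fold change 1 or more in size. Intervals are 95%, and floors of 3 counts cover counting error only. Clones were the replicates, and no 2 libraries of a group agreed within counting error. For 4 against 4 clones the smallest p of an exact permutation test is 0.0286. Alternatives were DESeq2 1.42.0, limma-voom (limma 3.58.1), RLE, upper quartile and total-count scaling, no filter, a stricter filter (10 counts or more in 4 or more clones), robust dispersion, a prior count of 2, clone number as a block, each clone left out in turn, and CPM in place of TPM for ratios between genes. The count tests were tested on simulated data, in which DESeq2 made more false calls than edgeR or limma-voom. DESeq2 also recovered more of the changes set at a log2 fold change of 1, of which edgeR and limma-voom missed a large part. A gene not called by edgeR may therefore still differ by that amount. Tables and figures were made with Python 3.11.15.

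The genes and lists were chosen with earlier results of these data known. Named were all 10 genes, the myogenic partners, the most abundant marker of each cell type (by TPM), and from each list some of the 5 called genes of the highest mean and some of those at 3 counts or fewer. *MYH11*, *GREM1*, *FST*, *MDFI*, *FLT1*, *PTPRC*, *AIF1*, *DLK1*, *ZNF423*, *CEBPA*, *PDGFRA*, *ITGAM*, *ACVR1*, *BAMBI*, *SMAD1*, *SMAD7*, *CDC20*, *FZR1* and *SMURF1* were named after their values were seen. The rule for genes of like pattern took the 3 genes with the largest change among those past both thresholds. As none passed, the adjusted p alone was used in its place after the results were seen, and *ID1* and *TWIST2* were added. Coordinates were taken from RefSeq (ARS-UCD2.0). *MYF6* and a planned count of promoter motifs were not analysed here.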

Additional observations from a re-analysis of the deposited data

Results flagged for a closer look

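In 3 of 20 groups of 4 clones, 1 clone lay farther from the others than Dixon's 95% limit allows, where chance gives about 1 in 20. For *ID1*, SF3 had 239 CPM, and the gap to the next SF clone was 0.9 of the range of the group. For *MSC*, SF1 had 12.1 CPM against 6.45 to 7.05 CPM in the other SF clones (0.894 of the range). For *ID4*, IMF2 had 35.98 CPM against 26.3 to 27.9 CPM in the other IMF clones (0.839 of the range). IMF2 was also the deepest library, with 29308882 counts, and the part of depth in this value was not tested.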

How the results depend on the processing

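Over 18 settings for each of the 10 genes, 178 of 180 log2 fold changes kept their direction. The exceptions were *ID4* without SF2 (-0.0043) and without SF3 (-0.11), where fewer clones were fitted, and over single clones left out its values ran from -0.11 to 0.51. In 158 the side of the adjusted p-value also held, 11 lost it and 9 gained it. The number of the 10 genes past both thresholds, 0 in the fit reported, was 1 with DESeq2 (*TWIST2*), 1 with total counts alone (*TCF4*, log2 fold change 1.01), 1 with the stricter filter (*TWIST2*), and from 0 to 2 with 1 clone left out. With adjusted p under 0.05, from 1 to 3 genes were higher and from 2 to 5 lower with 1 clone left out, and 5 were lower with DESeq2. The causes were not tested. In CPM, which leaves out gene length, the ratio of ID to E-protein level was 1.82 in IMF and 1.73 in SF, and that of *TCF4* to *TCF12* was 0.447 and 0.172, with the order of the groups kept. The myogenic sum per E-protein level in IMF was 1.18 in CPM, and the ID level 1.54 times that sum. Of 23 sums, shares and ratios, 20 kept the relation of the groups, while the ID sum was lower in IMF by its mean in CPM and higher in TPM. Over all genes 1618 were called, and from 1332 to 1643 with 1 clone left out. Whether clones with the same number came from the same animal is not stated. Deviations of clones with the same number correlated at -0.00933 to 0.139 over 4 pairs, and those of clones with different numbers at -0.105 to 0.109 over 12 pairs. These values cannot decide whether the clone number pairs the samples. With that number fitted as a block, 1489 genes and 0 of the 10 were called, 2 were higher and 2 lower at the adjusted p-value, and *ID3* had an adjusted p of 0.0596. Of 55 genes past both thresholds in the other lists, 44 passed in every setting, and of 16 past the adjusted p-value alone only 4 did. None of these genes changed direction. The block ended 3 of the first calls (*GATA2*, *DES* and *ACTA2*) and 5 of the others. With 4 clones a group, the intervals of *ID1*, *ID4* and *TWIST2* leave both small and large differences possible.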
